A study of Canis lupus familiaris with 18 samples.

Results

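The genes described here encode the contractile apparatus of skeletal muscle, measured in fat of 9 intact female beagles with Affymetrix canine arrays. The list holds 42 genes of the sarcomere, of its calcium supply and of muscle fibre metabolism. A probe set, a group of short probes for 1 transcript, stood for a gene where the platform annotation gave it that gene's symbol and no other. Of several such probe sets, the one with the highest mean over the 18 arrays was used. This placed 40 of the 42 genes among 15115 genes with a symbol of their own. CKM, muscle creatine kinase, and TNNI1, slow troponin I, had no such probe set and were not analysed here.

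Gonadal and subcutaneous fat were taken from each dog at 24 weeks, after an overnight fast. All dogs were 4 years old and ate Purina Pro Plan Performance Formula. Dogs had been assigned to feeding at random. The groups were gonadal fat of ad libitum dogs, which became obese (n = 5, dogs 2, 5, 6, 7 and 8), gonadal fat of control dogs, fed to keep their starting weight (n = 4, dogs 1, 3, 4 and 9), and subcutaneous fat of the same ad libitum dogs (n = 5) and control dogs (n = 4). Per the labels only the subcutaneous arrays had been submitted before, with other processed values. A difference between depots and a difference between these sets of arrays therefore cannot be told apart.

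In a striated fibre the sarcomere is the repeating unit of contraction. Thick filaments of myosin heavy and light chains pull on thin filaments of actin, and troponin and tropomyosin on the thin filament make the pull depend on calcium. The Z-disc anchors the thin filaments, the M-band ties the thick filaments together, and titin spans from the Z-disc to the M-band. Most of these proteins exist as a fast and a slow isoform from separate genes, and a muscle's mix of fast and slow fibres shows in their ratio. Some of the genes also work outside skeletal muscle, such as the tropomyosins in smooth muscle. Fat cells have no sarcomeres.

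Values are log2 signals, and log2 4 is used as the floor below which a signal is treated as background. An array's deviation is its value minus the median of the other 8 arrays of its depot. In bulk tissue, fewer cells of a type and less RNA per cell cannot be told apart. The markers of fat cells were at or above the floor in every array (9 of 9), with a mean log2 signal of 10.62 to 13.04.

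The muscle genes were not spread evenly over the 18 arrays. In the gonadal array of ad libitum dog 2, 28 of 40 genes lay over 2 log2 units above the other gonadal arrays, where 0.516% of all 15115 genes did so. The subcutaneous array of control dog 3 had 26 such genes against a background of 0.873%, and that of control dog 4 had 25 against 2.02%. The subcutaneous array of ad libitum dog 7 had 4, against 0.258%: MYH1, MYH2, TNNC2 and TNNI2, all of the fast list. The median deviation of the 40 genes was 4.99 log2 units in gonadal dog 2, 0.06 in subcutaneous dog 7, 4.13 in subcutaneous dog 3 and 2.86 in subcutaneous dog 4. In the other 14 arrays it lay between -0.05 and 0.04, and in all 18 arrays the median over all genes lay between -0.04 and 0.03.

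**Figure D1:**
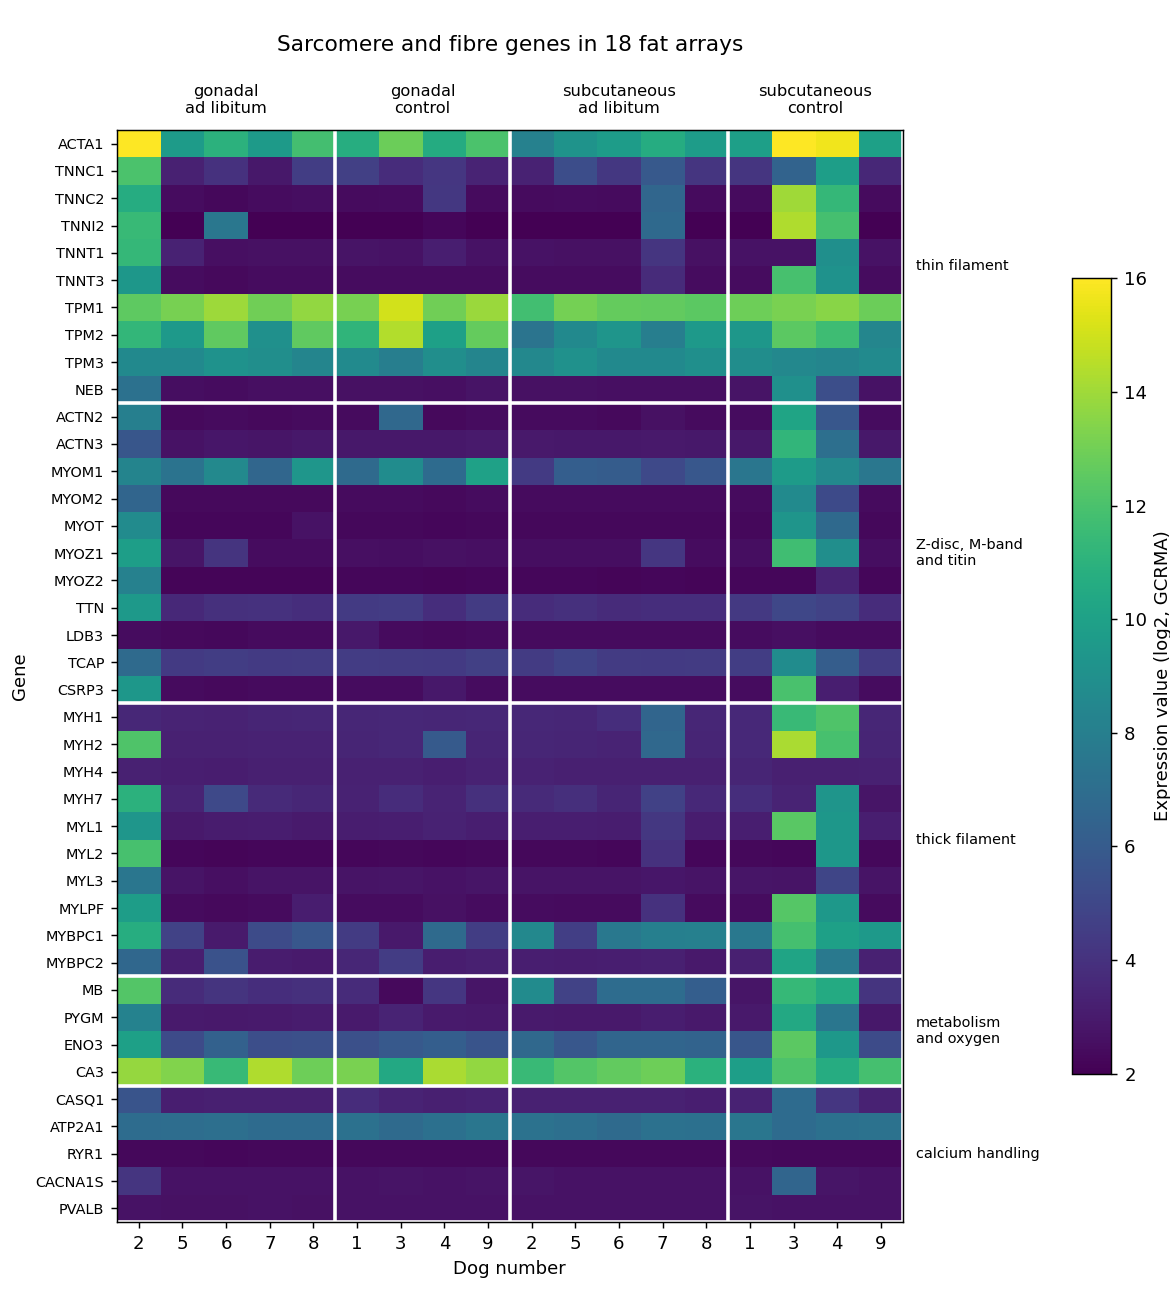
Log2 expression value (colour, 2 to 16) of 40 skeletal muscle genes (rows, grouped by role) in 18 fat arrays (columns, by depot, feeding and dog number). The columns that stand out are gonadal ad libitum dog 2 and subcutaneous control dogs 3 and 4, which differ from each other in the slow genes such as MYH7, MYL2 and TNNT1.

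The paired depot of the same dogs had far fewer raised muscle genes. Dog 2 had 28 raised muscle genes in gonadal fat and 1 in subcutaneous fat (MB, background 1.05%). Dog 3 had 3 in gonadal fat (ACTA1, ACTN2 and TPM2, background 1.11%) and 26 in subcutaneous fat. Dog 4 had 2 in gonadal fat (MYH2 and MYBPC1, background 0.278%) and 25 in subcutaneous fat, and dog 7 had 0 in gonadal fat (background 0.0926%) and 4 in subcutaneous fat. Of the remaining 10 arrays, gonadal dog 6 had 2 (TNNI2 and MYBPC2, background 4.18%), gonadal dog 9 had 1 (MYOM1, 0.331%), and the other 8 had 0. Of all genes, 0.979%, 0.417% and 0.298% were that high in subcutaneous ad libitum dogs 5, 6 and 8, 0.152% and 0.172% in subcutaneous control dogs 1 and 9, 0.304% and 0.152% in gonadal ad libitum dogs 5 and 8, and 0.192% in gonadal control dog 1.

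**Figure D2:**
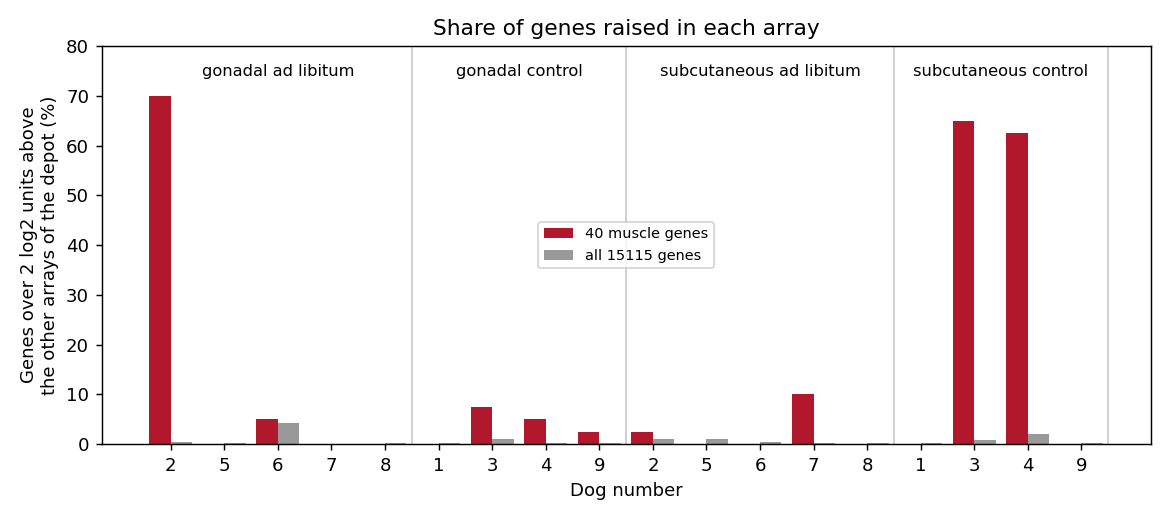
Percent of genes over 2 log2 units above the median of the other arrays of the depot, for the 40 muscle genes (red bars) and all 15115 genes (grey bars) in each of the 18 arrays. Gonadal ad libitum dog 2 and subcutaneous control dogs 3 and 4 are the tall red bars (28, 26 and 25 genes), and the next is subcutaneous ad libitum dog 7 (4 genes).

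Among all genes of an array, the muscle genes led the ranking of deviations. All 10 of the highest deviations in gonadal dog 2 belonged to them, as did 8 of 10 in subcutaneous dog 3, 6 of 10 in subcutaneous dog 4 and 2 of 10 in subcutaneous dog 7. The highest was MYL2, the slow regulatory light chain, in gonadal dog 2, and TNNI2, fast troponin I, in the 3 subcutaneous arrays. In the remaining 14 arrays none of the 10 highest was a muscle gene of the list.

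Among thin filament genes, TNNI2, the fast inhibitory troponin, read 11.45 in gonadal dog 2, 6.77 in subcutaneous dog 7, 14.31 in subcutaneous dog 3 and 11.87 in subcutaneous dog 4, and 1.90 to 7.55 in the other 14. The value of 7.55 was gonadal ad libitum dog 6, and the other 13 arrays were under the floor. TNNC2, the fast calcium-binding troponin, read 10.67, 6.63, 14.01 and 11.33 in those 4 arrays in the same order, against 2.32 to 4.26 elsewhere. TNNT3, the fast tropomyosin-binding troponin, read 9.41, 3.70, 11.90 and 9.16, against 2.33 to 2.48. NEB, nebulin, the giant protein along the thin filament, read 7.20, 2.58, 9.00 and 5.37, against 2.48 to 2.73. In gonadal dog 2 and subcutaneous dogs 3 and 4 all 4 of these genes stood above the range of the 14 arrays. Subcutaneous dog 7 stood above it for TNNC2 and TNNT3, and for TNNI2 above all of the 14 but gonadal dog 6.

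Among thick filament genes, MYH2, the fast IIa myosin heavy chain, read 12.12 in gonadal dog 2, 6.74 in subcutaneous dog 7, 14.23 in subcutaneous dog 3 and 11.94 in subcutaneous dog 4, against 3.27 to 5.99 in the other 14 arrays. The value of 5.99 was gonadal control dog 4. MYH1, the fast IIx heavy chain, read 3.53, 6.58, 11.50 and 12.13 in the same 4 arrays, against 3.34 to 3.82. It was thus under the floor in gonadal dog 2, and at least 181-fold lower there than in subcutaneous dog 3, taking the floor as the lower value. MYH4, the fast IIb heavy chain, stayed between 3.10 and 3.43 in the 14 arrays and between 3.22 and 3.28 in the 4, under the floor throughout. MYLPF, the fast regulatory light chain, read 9.79, 4.01, 12.29 and 9.46, against 2.37 to 3.11, and MYL1, the fast essential light chain, read 9.36, 4.27, 12.39 and 9.42, against 2.97 to 3.36. Both light chains placed the 4 arrays above all 14 others, with subcutaneous dog 7 the lowest of the 4.

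The Z-disc and M-band genes moved with the filaments. MYOZ1, the fast-fibre calsarcin of the Z-disc, read 9.85 in gonadal dog 2, 4.20 in subcutaneous dog 7, 11.69 in subcutaneous dog 3 and 8.94 in subcutaneous dog 4, against 2.47 to 4.11 elsewhere. ACTN3, the fast-fibre alpha-actinin, read 5.73, 2.98, 11.22 and 7.09, against 2.68 to 2.99, so that subcutaneous dog 7 was within the range of the 14. MYOT, myotilin, read 8.78, 2.29, 9.30 and 6.80, against 2.24 to 2.66. MYOM2, an M-band protein, read 6.58, 2.40, 8.68 and 5.12, against 2.36 to 2.44. By role, genes over 2 log2 units in gonadal dog 2, subcutaneous dog 3 and subcutaneous dog 4 numbered 8, 6 and 8 of 10 for the thick filament, 7, 7 and 8 of 10 for the thin filament, and 9, 8 and 6 of 11 for the Z-disc, M-band and titin. For metabolism and oxygen they numbered 3, 3 and 3 of 4.

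By the probe sets used, calcium handling genes were the least visible. They numbered 1, 2 and 0 of 5 in the same 3 arrays. ATP2A1, the fast calcium pump, was not counted by its probe set used. Another of its probe sets deviated by 6.06 in gonadal dog 2, 8.63 in subcutaneous dog 3 and 5.93 in subcutaneous dog 4. CASQ1, the calcium buffer of the sarcoplasmic reticulum, read 5.65 in gonadal dog 2, 6.91 in subcutaneous dog 3 and 4.19 in subcutaneous dog 4, against 3.18 to 3.75 in the 14. RYR1, the calcium release channel, and PVALB, parvalbumin, a calcium buffer of fast fibres, were under the floor in all 18 arrays, as was MYH4. LDB3, a Z-disc protein, was under it by the probe set used, while another of its probe sets read 4.63 in gonadal dog 2 and 4.54 in subcutaneous dog 3. A gene under the floor is not shown to be absent, because its probes may be weak.

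Fast and slow isoforms separated the arrays that carried muscle transcripts. Because each isoform is set against itself in another array, this comparison does not set levels of different genes against each other. With values under the floor raised to it, gonadal dog 2 was lower than subcutaneous dog 3 for 11 of the 12 fast-list genes at or above the floor in either array, by a median of -2.68 log2 units, and higher for 8 of 10 slow-list genes, by a median of 3.83. Gonadal dog 2 against subcutaneous dog 4 gave a median of -0.14 over 12 fast genes (5 higher, 7 lower) and 2.44 over 10 slow genes, all higher. Subcutaneous dog 3 was higher than subcutaneous dog 4 for 10 of 12 fast genes, with a median of 2.70, and for the slow list 4 of 9 were higher and 5 lower, with a median of -0.93. These are differences between single arrays, with no replicate and no test. Against gonadal dog 2 the depot differs too, and its part was not tested. CA3 of the slow list averaged 13.16 and 12.90 in gonadal and 12.04 and 11.11 in subcutaneous ad libitum and control fat. It deviated by only 0.50 in gonadal dog 2. MYBPC1 of the same list averaged lower in gonadal fat. ATP2A1 entered the fast list by a probe set that was flat in all arrays.

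Among the slow genes, MYH7, the slow heavy chain, read 11.01 in gonadal dog 2, 4.71 in subcutaneous dog 7, 3.42 in subcutaneous dog 3 and 9.29 in subcutaneous dog 4, against 2.77 to 5.10 elsewhere. MYL2 read 11.95 in gonadal dog 2, 2.27 in subcutaneous dog 3 and 9.43 in subcutaneous dog 4, so that gonadal dog 2 was at least 248-fold higher than subcutaneous dog 3. TNNT1, the slow tropomyosin-binding troponin, read 11.32, 2.66 and 8.95 in these 3 arrays, and was at least 160-fold higher in gonadal dog 2 than in subcutaneous dog 3. TNNC1, the slow calcium-binding troponin, read 12.04, 6.45 and 9.86, and MYOZ2, the slow-fibre calsarcin, read 8.17, 2.22 and 3.38. MYL3, the slow essential light chain, read 7.50, 2.75 and 4.93. In subcutaneous dog 7 TNNC1 read 5.93 and TNNT1 4.16, where the other 14 arrays reached at most 5.30 and 3.34. Subcutaneous dog 3 thus held MYH7, MYL2, MYL3, MYOZ2 and TNNT1 under the floor beside its high fast genes, while gonadal dog 2 had all 5 above it and subcutaneous dog 4 had all but MYOZ2.

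Not every gene of the slow list moved with the slow myosin. CSRP3, muscle LIM protein, read 9.44 in gonadal dog 2, 11.97 in subcutaneous dog 3 and 3.17 in subcutaneous dog 4. It was highest in the array that lacked MYH7 signal. MYBPC1, slow myosin-binding protein C, read 10.70, 11.85 and 9.97, and MB, myoglobin, the oxygen store of oxidative fibres, read 12.27, 11.36 and 10.57. MYBPC2, fast myosin-binding protein C, read 6.66, 10.16 and 7.66. Within an array, the median deviation of the fast list (14 genes) minus that of the slow list (10 genes) was -2.37 in gonadal dog 2, 0.42 in subcutaneous dog 7, 8.53 in subcutaneous dog 3 and 3.24 in subcutaneous dog 4. With values under the floor set to it, the value of subcutaneous dog 7 turned to -0.042, and with the mean of a gene's probe sets that of gonadal dog 2 was -0.87.

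**Figure D3:**
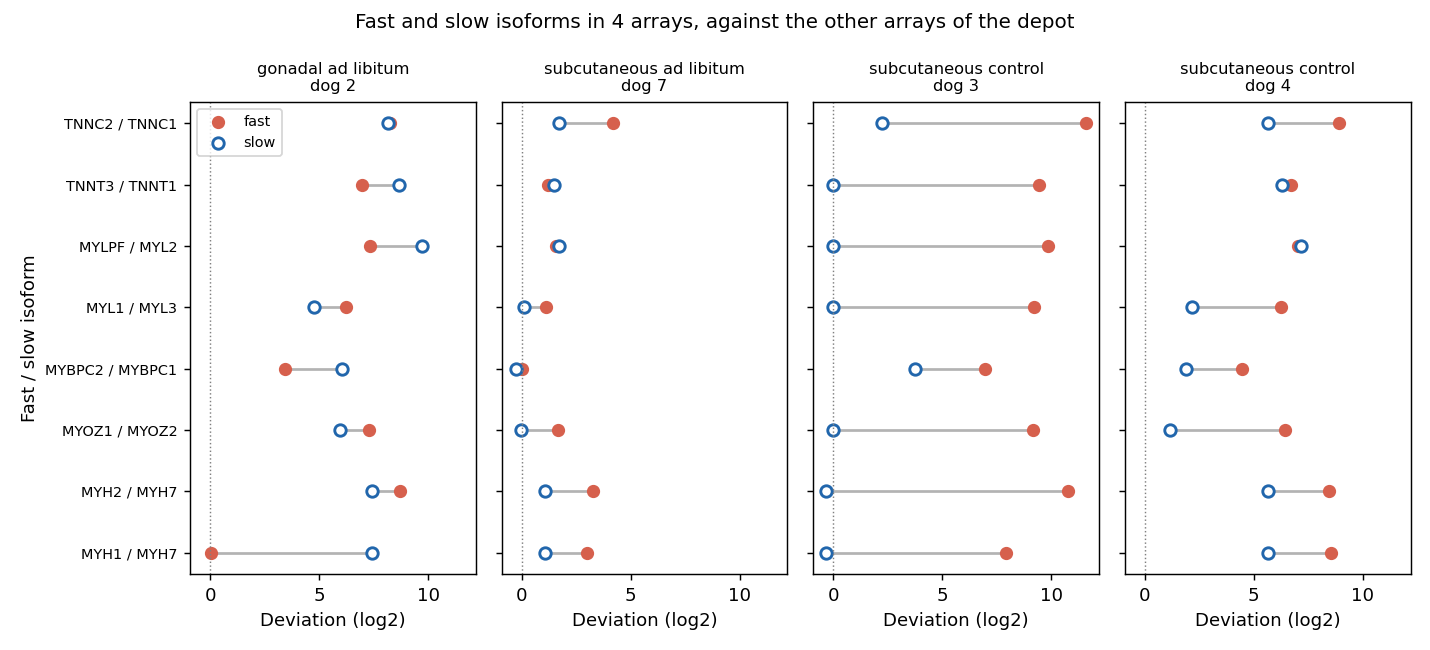
Deviation in log2 units from the median of the other arrays of the depot (x axis) for 8 pairs of a fast (filled red) and a slow isoform (open blue) in 4 arrays. In subcutaneous control dog 3 the slow members of 6 of the pairs lie near 0 and the fast ones far to the right, in subcutaneous control dog 4 both are raised, and in gonadal ad libitum dog 2 only MYH1 lies at 0.

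Probe sets not chosen for a gene gave the same arrays, with exceptions that show how much rests on the choice. Over all 119 probe sets of the 40 genes, 59 lay over 2 log2 units in gonadal dog 2, 10 in subcutaneous dog 7, 70 in subcutaneous dog 3 and 50 in subcutaneous dog 4, and 0 to 6 did in each of the other 14 arrays. The share of all probe sets that high was not counted, and the shares given above are per gene. ATP2A1, the fast calcium pump, appeared flat at 6.83 to 7.49 in all 18 arrays by the probe set used. Another of its probe sets read 8.57 in gonadal dog 2, 2.86 in subcutaneous dog 7, 11.28 in subcutaneous dog 3 and 8.58 in subcutaneous dog 4, against 2.35 to 3.01 elsewhere. TTN, titin, read 9.54, 3.82, 4.99 and 4.79 by the probe set used, while another read 11.16, 5.21, 13.36 and 10.68. MYH1 was raised by only 1 of its 3 probe sets in subcutaneous dog 4, and the others stayed under the floor there, so that its order rests on that probe set.

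ACTA1, skeletal muscle alpha-actin, showed the same dependence. The probe set used lay at 8.17 to 12.88 in the 14 arrays, well above the floor, and at 16.24 in gonadal dog 2, 10.66 in subcutaneous dog 7, 16.51 in subcutaneous dog 3 and 15.68 in subcutaneous dog 4. A second probe set of ACTA1 lay under the floor in 12 of 14 arrays, with a median of 2.30, and read 14.84, 9.73, 15.36 and 13.93 in the 4. It also read 8.02 in gonadal control dog 4, where MYH2 (5.99) and TNNC2 (4.26) were above the floor, and 4.67 in gonadal ad libitum dog 8. In gonadal control dog 3, where the probe set used reached 12.88, the second read 2.27. The name of the probe set used ends in x_at, which Affymetrix gives to probe sets that may bind related transcripts. The remaining ACTA1 probe set also ends in x_at, yet it read only 3.20 to 4.96 in the 14 arrays. It read 12.30, 6.63, 12.91 and 11.22 in the 4, in the same order. The ending of the name therefore does not set the probe set used apart. The mean signal of 7 smooth muscle markers was highest in gonadal control dog 3 (12.97). Binding of smooth muscle actins to the probe set used was not tested.

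Markers of other muscle types were compared in the same arrays. The summed log2 level of 5 cardiac markers spanned 6.21 to 7.24 in gonadal ad libitum, 6.24 to 7.08 in gonadal control, 6.09 to 6.82 in subcutaneous ad libitum and 6.13 to 6.73 in subcutaneous control arrays, with 1 to 3 of 5 at or above the floor. Gonadal dog 2 read 6.65, subcutaneous dog 7 read 6.50, subcutaneous dog 3 read 6.13 and subcutaneous dog 4 read 6.64, and none of them was the highest of its group. Of 6 myogenic regulators and satellite cell markers, 0 reached the floor in any array. The summed level of 7 smooth muscle markers spanned 14.09 to 16.11, 14.98 to 17.36, 12.27 to 14.19 and 13.83 to 15.22 in the same order of groups. It was 14.09 in gonadal dog 2 and 13.83 in subcutaneous dog 3, each the lowest of its group, and 13.68 in subcutaneous dog 7. Subcutaneous dog 4, at 15.22, exceeded every other array of its depot. The part of smooth muscle in its values was not tested.

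Other tissue markers moved with 1 of the arrays. Of 7 ciliated epithelium markers 5 were at or above the floor in subcutaneous control dog 4 and in gonadal ad libitum dog 6, and 0 in the other 16 arrays. EPCAM and KRT18, epithelial genes, were among the 10 highest deviations of subcutaneous dog 4. Their part in its muscle values was not tested. The mean signal of 9 fat cell markers was 13.04 in gonadal dog 2, the highest of all arrays, 12.77 in subcutaneous dog 7, 10.62 in subcutaneous dog 3, the lowest of all, and 11.24 in subcutaneous dog 4. The actin 3′ minus 5′ signal, a measure of RNA length, was 3.07, 3.76, 3.42 and 5.72 in these arrays, where all 18 ranged from 1.91 to 5.72.

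A list of 49 further skeletal muscle genes was raised most often in gonadal dog 2 and subcutaneous dogs 3 and 4, and not in subcutaneous dog 7. It was chosen with earlier results of these data known. It had 13 genes over 2 log2 units in gonadal dog 2 (background of all genes 0.516%) and 0 in subcutaneous dog 7 (0.258%). Subcutaneous dog 3 had 21 (0.873%) and subcutaneous dog 4 had 7 (2.02%). Gonadal control dog 3 had 5 (1.11%), gonadal ad libitum dog 6 had 3 (4.18%), and each of the rest had 0 or 1 (0.0926% to 1.05%). KLHL41, a sarcomere-stabilising protein, deviated by 6.92, 8.71 and 4.62 in gonadal dog 2 and subcutaneous dogs 3 and 4. NRAP, a scaffold of myofibril assembly, deviated by 6.22, 6.90 and 4.94. MYH3, embryonic myosin heavy chain, read 10.80 in subcutaneous dog 3 and 2.65 to 2.99 in the other 17 arrays. DES, desmin, the intermediate filament of both striated and smooth muscle, was highest in gonadal control dog 3 (14.14), as were TPM1 (15.02) and TPM2 (14.38) of the sarcomere list.

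Of the 40 genes 9 were at or above the floor in all 18 arrays: ACTA1, MYOM1, TPM1, TPM2, TPM3, ATP2A1, TCAP, ENO3 and CA3. MYBPC1 was so in 16 arrays. Leaving out gonadal dog 2 and subcutaneous dogs 3, 4 and 7, 11 genes reached the floor in some of the 14 arrays and 20 in none. The 20 included MYH1, MYL1, MYL2, MYLPF, TNNT1, TNNT3 and NEB. These counts are by the probe set used, and another probe set of MYL1 read 4.24 in gonadal control dog 4.

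TPM1 and TPM2, tropomyosins that smooth muscle also makes, were high in fat without the fibre genes. TPM1 read 11.76 to 15.02 in the 14 arrays, and TPM3, a tropomyosin of slow fibres and of many other cells, read 8.01 to 9.13. TPM2 read 11.27, 9.50, 12.58, 9.02 and 12.58 in gonadal ad libitum dogs 2, 5, 6, 7 and 8, and 11.17, 14.38, 9.98 and 12.69 in gonadal control dogs 1, 3, 4 and 9. In subcutaneous fat it read 7.41, 8.62, 9.29, 7.97 and 9.50 in ad libitum dogs and 9.42, 12.48, 11.64 and 8.43 in control dogs, where dogs 3 and 4 stood above the other 7 arrays of the depot. Gonadal control dog 3, gonadal control dog 9 and gonadal ad libitum dogs 6 and 8 were the highest for TPM2, and the same 4 arrays had the highest mean smooth muscle signal, 12.97, 11.03, 11.43 and 11.32, with all others at 7.52 to 10.54.

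CA3, carbonic anhydrase III, an enzyme of slow fibres that rodent fat cells also make in abundance, read 13.78, 13.36, 11.44, 14.32 and 12.92 in gonadal ad libitum dogs and 13.20, 10.45, 14.20 and 13.75 in gonadal control dogs. It read 11.47, 12.23, 12.64, 12.90 and 10.96 in subcutaneous ad libitum dogs and 9.86, 12.07, 10.66 and 11.85 in subcutaneous control dogs. Subcutaneous dogs 3 and 4 were not raised for it. ENO3, the muscle enolase of glycolysis, read 5.19 to 6.72 in the 14 arrays, and 9.94, 6.58, 12.45 and 9.48 in gonadal dog 2 and subcutaneous dogs 7, 3 and 4. TCAP, the titin cap, read 4.36 to 4.83 in the 14, and 6.85, 4.40, 8.83 and 6.15. TCAP thus had a low even level across the 14 arrays (range 0.47), while ENO3 varied more (range 1.53). The ENO3 median in them was 6.52 in subcutaneous ad libitum and 5.48 in subcutaneous control arrays. It was 5.40 in gonadal ad libitum and 5.79 in gonadal control arrays. Both genes stood above the 14 arrays in gonadal dog 2 and subcutaneous dogs 3 and 4.

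The feeding comparison in subcutaneous fat asked whether ad libitum dogs differed from control dogs. Of the 22 muscle genes that passed the filter on low values (log2 4 in at least 4 arrays), 1 passed the test, lower in ad libitum dogs, where 2.31% of 8650 genes tested passed. That gene was MYOM1, myomesin, which links thick filaments at the M-band. It read 4.40, 6.21, 6.06, 5.10 and 5.79 in ad libitum dogs 2, 5, 6, 7 and 8 and 7.49, 9.67, 8.61 and 7.57 in control dogs 1, 3, 4 and 9. The groups did not overlap, and the share of all genes without overlap was not counted. The difference was -2.82 ± 0.69 (SE, limma adjusted p = 0.0447). Without the subcutaneous arrays of dogs 3 and 4 it was -2.02 (adjusted p = 0.398), where 0.0116% of genes passed. Leaving out each dog in turn gave -3.10 to -2.38, with adjusted p from 0.0218 to 0.139, and the call ended without any of dogs 1, 2, 3, 4, 6, 7, 8 and 9. Of the 22 genes, MYL1 and MYLPF reached the floor only in gonadal dog 2 and subcutaneous dogs 3, 4 and 7. ACTN2, MYH2, MYH7, MYOZ1, TNNC2 and TNNI2 reached the floor in only 1 of the other 14 arrays, and MYBPC2 in 2. Without the arrays with high muscle values, none of these genes would have passed the filter. Tests of these genes, in any comparison, therefore rest on arrays with high muscle values.

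Over the whole list the subcutaneous difference lay in 2 of the control arrays. The median difference over 40 genes was -1.87, against -0.01 over all genes, and without subcutaneous dogs 3 and 4 it was 0.00. Those arrays stood apart by these same genes, so the change without them is no separate evidence. The same holds for the medians below that leave out such arrays. ACTA1 differed by -3.51 ± 1.43 (adjusted p = 0.159) and read 8.17, 9.17, 9.75, 10.66 and 9.73 in ad libitum dogs and 9.89, 16.51, 15.68 and 9.93 in control dogs. MYBPC2 differed by -2.95 ± 1.14 (adjusted p = 0.140), a bound of at least 4.24-fold lower, and read 2.94 to 3.23 in ad libitum dogs and 3.21, 10.16, 7.66 and 3.30 in control dogs. For both genes, control dogs 1 and 9 lay within or close to the range of the ad libitum dogs.

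In gonadal fat, 0 of 22 muscle genes passed by limma, where 0% of 8650 genes did, and 0 had an unadjusted p under 0.05. The share of all genes at this unadjusted cut was not counted. The median difference over 40 genes was 0.75, against -0.02 over all genes, and without gonadal dog 2 and subcutaneous dogs 3, 4 and 7 it was -0.07. The smallest p values were those of ATP2A1, MB and MYH7. ATP2A1 averaged 6.98 ± 0.10 in ad libitum dogs and 7.18 ± 0.27 in control dogs (SD), and differed by -0.20 ± 0.15 (adjusted p = 1.00), by the probe set that was flat in all arrays. With the mean of its probe sets the difference turned to 0.73 (adjusted p = 1.00). MB read 12.27, 3.71, 4.12, 3.82 and 3.96 in ad libitum dogs and 3.71, 2.38, 4.23 and 2.78 in control dogs, and differed by 2.30 ± 1.84. MYH7 differed by 1.72 ± 1.39, with gonadal dog 2 at 11.01 and the other 8 gonadal arrays at 3.36 to 5.10. The gonadal control means of MB (3.28) and MYH7 (3.61) lay under the floor, so the sizes of their differences are not measured.

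**Figure D4:**
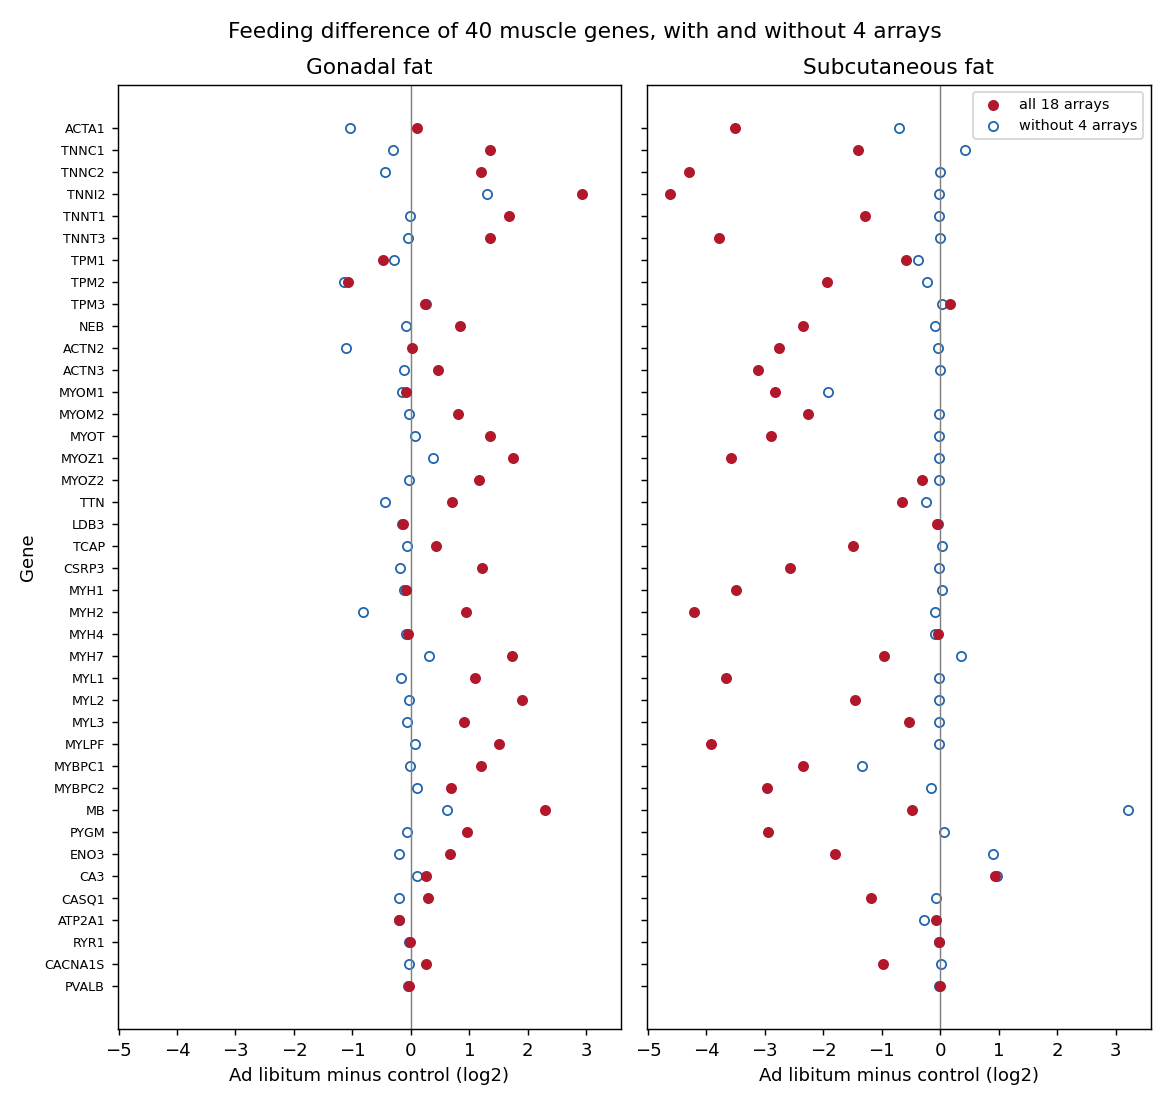
Difference between ad libitum and control dogs (x axis, log2) of 40 muscle genes in gonadal fat (left) and subcutaneous fat (right), with all 18 arrays (filled) and without gonadal dog 2 and subcutaneous dogs 3, 4 and 7 (open). The medians are 0.75 and -0.07 in gonadal fat and -1.87 and -0.02 in subcutaneous fat, and the open point farthest right is MB in subcutaneous fat (3.21).

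Between depots of ad libitum dogs, 1 of 22 muscle genes passed, higher in gonadal fat, where 7.46% of genes passed. This was MYOM1, at 8.33, 7.31, 8.59, 6.64 and 9.37 in gonadal fat and 4.40, 6.21, 6.06, 5.10 and 5.79 in subcutaneous fat of dogs 2, 5, 6, 7 and 8. Gonadal fat was higher in 5 of 5 dogs and the depots did not overlap, though the share of all genes without overlap was not counted. The difference was 2.54 ± 0.65 (limma adjusted p = 0.0271). Without gonadal dog 2 and subcutaneous dogs 3, 4 and 7 it was 2.36 (adjusted p = 0.0936). Without subcutaneous dogs 3 and 4 alone the call remained (adjusted p = 0.0300, where 5.88% of genes passed). The call ended without dogs 2, 6, 7 or 8 (adjusted p 0.0201 to 0.114 over all dogs left out in turn). The subcutaneous ad libitum arrays enter both MYOM1 results. The 4 highest gonadal values of MYOM1 were those of control dogs 3 and 9 and ad libitum dogs 6 and 8, the arrays with the highest smooth muscle signal. In ad libitum dogs that mean signal was 9.13 to 11.43 in gonadal and 7.52 to 9.21 in subcutaneous arrays, and its part in the MYOM1 difference was not tested. TPM2 differed by 2.43 ± 0.94 (adjusted p = 0.124) and TPM1 by 0.74 ± 0.36 (adjusted p = 0.230). The median over 40 genes was 0.91, and -0.03 without the 4 arrays.

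In control dogs 0 of 22 muscle genes passed between depots, where 2.95% of genes did, and 6 had an unadjusted p under 0.05 by limma. The share of all genes at the unadjusted cut was not counted, so these 6 are not read as an excess. MYBPC1 came closest, at 4.44, 2.97, 6.84 and 4.55 in gonadal fat and 7.59, 11.85, 9.97 and 9.51 in subcutaneous fat of dogs 1, 3, 4 and 9. Gonadal fat was lower in 4 of 4 dogs and the depots did not overlap, though the share of all genes without overlap was not counted. The difference was -5.03 ± 1.35 (limma adjusted p = 0.0548), and passed with the dog as a block (adjusted p = 0.0257 as a random and 0.0451 as a fixed block). Without subcutaneous dogs 3 and 4 it was -3.85 (adjusted p = 0.339, where 0.867% of genes passed), and without gonadal dog 2 and subcutaneous dog 7 as well the adjusted p was 0.211 (0.462% of genes). CA3 differed by 1.79 ± 0.77 (adjusted p = 0.201). MYL1 differed by -3.83 ± 1.72 (adjusted p = 0.221), a bound of at least 8.20-fold lower, which 2 control arrays set: subcutaneous dogs 3 and 4 read 12.39 and 9.42, and the other 6 control arrays 3.14 to 3.36. The median over 40 genes was -1.77, and 0.05 without those 2 arrays.

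MYBPC1 held a level of its own in subcutaneous fat. Its ad libitum values there were 8.56, 4.59, 7.61, 8.07 and 8.12 in dogs 2, 5, 6, 7 and 8, and in gonadal fat of these dogs 10.70, 4.76, 3.01, 5.20 and 5.80. Control dogs 1 and 9, in which MYH1, MYH2, MYH7 and TNNI2 were under the floor, still read 7.59 and 9.51 in subcutaneous fat. Gonadal fat was lower than subcutaneous fat in 3 of the 5 ad libitum dogs, with a difference of -1.49 ± 1.21 (adjusted p = 0.491).

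The feeding response in gonadal fat minus that in subcutaneous fat passed the test for 0 of 22 muscle genes by limma, where 0% of genes passed. An unadjusted p under 0.05 was found for 5, and the share of all genes at that cut was not counted. The difference of responses was 2.74 ± 0.97 for MYOM1, 3.65 ± 1.62 for MYBPC2 and 5.33 ± 2.41 for MYOZ1 (adjusted p = 0.748 for each). The median over 40 genes was 2.78, and -0.05 without gonadal dog 2 and subcutaneous dogs 3, 4 and 7. MYOZ1 read 9.85 in gonadal dog 2 and 2.47 to 4.11 in the other 8 gonadal arrays. It read 11.69 and 8.94 in subcutaneous control dogs 3 and 4, against 2.49 to 4.20 in the other 7 subcutaneous arrays.

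The feeding difference of MB in subcutaneous fat changed sign when those arrays were set aside. With all arrays, MB read 8.74, 4.77, 6.95, 6.96 and 6.16 in ad libitum dogs 2, 5, 6, 7 and 8 and 2.79, 11.36, 10.57 and 4.10 in control dogs 1, 3, 4 and 9, and the difference was -0.49 ± 1.84 (adjusted p = 0.896). Without gonadal dog 2 and subcutaneous dogs 3, 4 and 7 it was 3.21 ± 0.83 (adjusted p = 0.395), with 4 ad libitum dogs all above 2 control dogs. Between depots of ad libitum dogs MB was then lower in gonadal fat, with a difference of -2.76 ± 0.68 (limma adjusted p = 0.0423, where 4.27% of genes passed), and the difference was -1.14 ± 1.74 (adjusted p = 0.737) with all arrays. The gonadal ad libitum arrays left read 3.71 to 4.12, and the 2 subcutaneous control dogs left read 2.79 and 4.10. Both group means lay under the floor, so the sizes of these differences are not measured. Gonadal dog 2 and subcutaneous dogs 3, 4 and 7 were left out for their muscle gene values, MB among them.

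**Figure D5:**
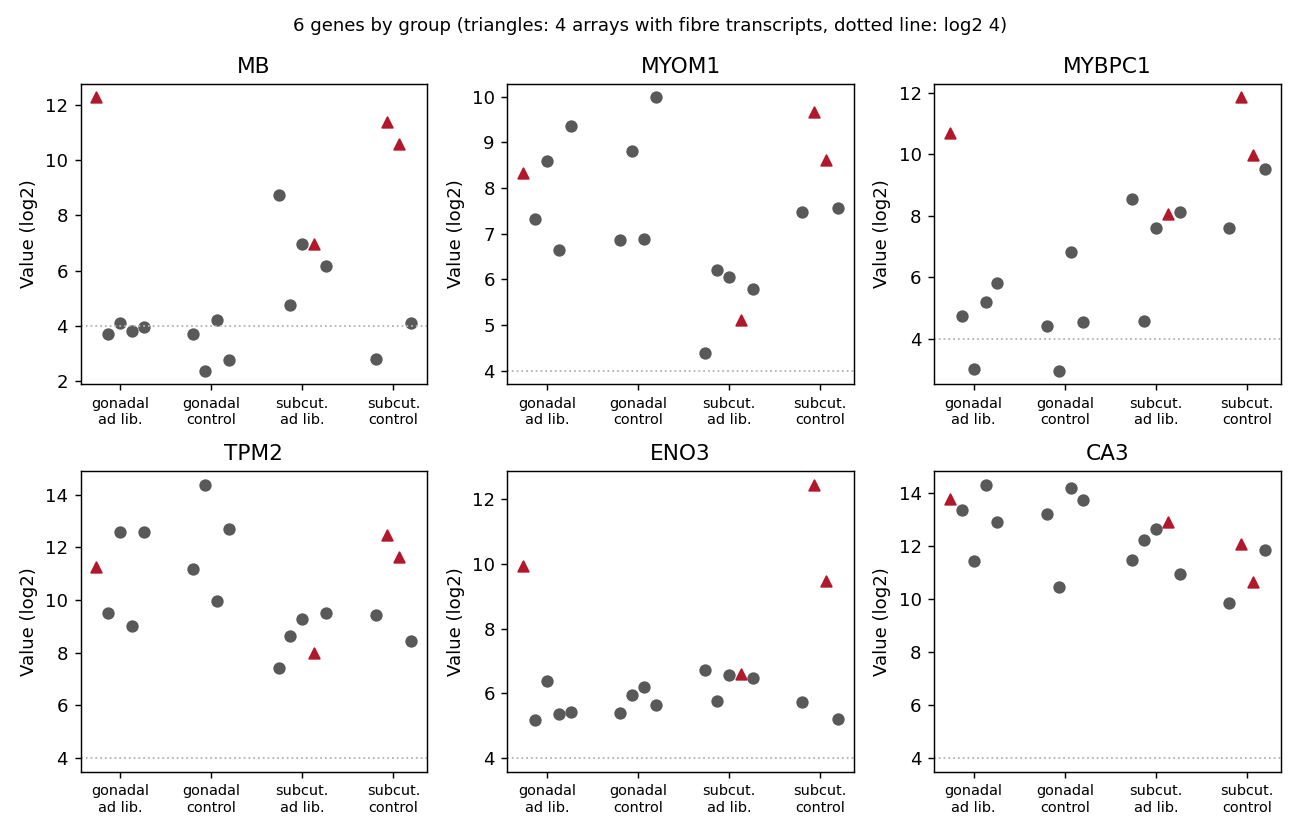
Log2 value (y axis) of MB, MYOM1, MYBPC1, TPM2, ENO3 and CA3 in every array by group, with gonadal ad libitum dog 2 and subcutaneous dogs 7, 3 and 4 as triangles, the other 14 arrays as circles, and a dotted line at log2 4. ENO3 is raised in 3 triangles alone, MB also stands at 4.77 to 8.74 in subcutaneous ad libitum circles, and TPM2 is raised in the triangles of subcutaneous control dogs 3 and 4 (12.48 and 11.64) while CA3 is not.

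The array with the highest MB outside those 4, subcutaneous ad libitum dog 2 (8.74), was also the highest for UCP1, the uncoupling protein of brown fat, at 10.01, where the other 17 arrays read 1.96 to 3.25. FABP3, a fatty acid binding protein of muscle and brown fat, was highest in it too (8.13). The 2 genes were chosen after their values were seen. In that array MYH2 read 3.49, MYH7 3.65 and TNNI2 1.92, all under the floor.

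Of the 49 further muscle genes, 20 were tested. In subcutaneous feeding 1 passed, higher in ad libitum dogs: SGCA, alpha-sarcoglycan of the muscle membrane complex, at 5.08, 4.17, 5.14, 4.20 and 4.99 in ad libitum dogs and 2.95, 4.34, 3.10 and 2.89 in control dogs, with a difference of 1.40 ± 0.32 (limma adjusted p = 0.0356). The ad libitum dogs lay above control dogs 1, 4 and 9, which were under the floor, and control dog 3 lay within their range. Of all genes tested, 2.31% passed in this comparison. Between depots of ad libitum dogs SGCA was lower in gonadal fat, with a difference of -1.63 ± 0.30 (adjusted p = 0.00443), and PLN, phospholamban, a regulator of the calcium pump, was higher by 3.07 ± 0.86 (adjusted p = 0.0404). Here 7.46% of all genes tested passed. SGCA was under the floor in every gonadal ad libitum array (2.76 to 3.57), so the size of its difference is not measured. By limma 0 of the 20 passed for gonadal feeding, for depot in control dogs and for the difference of responses, with 0, 3 and 1 at an unadjusted p under 0.05. Of all genes tested, 0%, 2.95% and 0% passed in these comparisons at the adjusted threshold, and the share at the unadjusted cut was not counted. Without gonadal dog 2 and subcutaneous dogs 3, 4 and 7, SGCA differed by 1.92 for subcutaneous feeding (adjusted p = 0.145) and PLN by 3.15 between depots (adjusted p = 0.110), while the depot difference of SGCA was -1.88 (adjusted p = 0.00275).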

How the data were processed

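The authors deposited 1 table of expression values on a log2 scale, made with GCRMA per the submitters' processing notes, for 18 arrays and 43035 probe sets. The log base was read from the values (0.68 to 16.51, array medians 3.65 to 3.87). The GCRMA version is not given in the sources used here. RNA came from Trizol extraction and was labelled as biotin cRNA in 1 cycle, per the labels' protocols. Scanner files were not used here.

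The platform annotation gave 1 symbol to 29254 probe sets, several to 439 and none to 13231. The 111 array controls were left out. Probe sets with log2 4 or more in at least 4 arrays (21484, 8650 genes by the probe set used) were tested with limma 3.58.1 (R 4.3.3, with statmod 1.5.0 for the block). The model held the means of the 4 groups, without a block. Ad libitum dogs were set against control dogs within a depot, gonadal against subcutaneous fat within a feeding group, and the gonadal against the subcutaneous feeding response. Tests were two-sided, adjusted by Benjamini-Hochberg over all probe sets tested, with a threshold of 0.05, and the fit was tested on simulated data. Where a group mean lay under log2 4 the fold is a bound with that mean set to log2 4. Errors are limma standard errors unless SD is given. The number of arrays limits the precision. Per-array counts and medians were computed in Python 3.11.15 with pandas 2.3.3 and numpy 2.4.6.

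The animal number in the labels pairs the depots of a dog. Deviations from group means correlated between the depots of a dog by -0.05 to 0.53, and the block is an alternative. Members and gene lists were chosen with earlier results of these data known. Named were members past the threshold or with the 3 smallest p in a comparison, the fast and slow isoform pairs, the myosin heavy chains, and members at or above log2 4 in at least 14 arrays. Alternatives were the filter, normalization, moderation, arrays in the fit, the dog as a block, leaving out each dog, leaving out arrays that stand apart, the mean of a gene's probe sets, and a covariate for RNA length (actin 3′ minus 5′ signal). Leaving out gonadal dog 2 with the subcutaneous arrays was chosen after seeing the data. For per-array values, the alternatives were values under log2 4 set to 4 and the other 17 arrays as the base.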

Additional observations from a re-analysis of the deposited data

Results flagged for a closer look

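In groups of 4 or 5 arrays, a value was singled out where the gap to its nearest neighbour, divided by the range of the group, passed the critical value of Dixon's test. Of 48 groups of values checked 9 did so. The muscle genes move together and the same values had set these arrays apart. The 48 groups are therefore not independent, and their count is not set against a chance rate. In gonadal fat of ad libitum dogs, dog 2 was the highest with a gap of 0.992 of the range for the median deviation of the muscle genes, 0.953 for MB, 0.774 for MYH7, 0.978 for MYL1 and 0.778 for MYOZ1. In subcutaneous fat of ad libitum dogs, dog 7 was the highest for MYL1 (0.944) and MYOZ1 (0.976), and dog 5 the lowest for MYBPC1 (0.762). Dog 7 read 4.27 for MYL1 and 4.20 for MYOZ1, close to the floor, and the other dogs of that group were under it. In subcutaneous fat of control dogs, dog 4 was the highest for MYH7 (0.840).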

How the results depend on the processing

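Medians over the 40 muscle genes depended on which arrays entered. The arrays left out stood apart by these same genes, so the changes in the medians are no separate evidence. For subcutaneous feeding the median was 0.0013 without subcutaneous dogs 3 and 4, with or without gonadal dog 2 also left out, and -0.024 when subcutaneous dog 7 was left out too, again with or without gonadal dog 2. For depot in control dogs it was 0.055 in all 4 of these settings, and MYL1 turned to 0.043. For the difference of feeding responses the median was 0.56 without subcutaneous dogs 3 and 4, 0.88 without dogs 3, 4 and 7, -0.13 without dogs 3 and 4 and gonadal dog 2, and -0.047 without all 4 arrays. Fewer samples entered these fits.

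The 1 call for subcutaneous feeding became 0 with no filter, with quantile normalization again, with only the arrays of the comparison, in the 4 settings without those arrays, with the mean of a gene's probe sets and with the RNA length covariate. The cause was not tested. Depot in ad libitum dogs gave 0 calls in place of 1 with no filter and without subcutaneous dogs 3, 4 and 7. It gave 2 (1 higher, 1 lower) without subcutaneous dogs 3 and 4 and gonadal dog 2. Without all 4 arrays the 1 call was MB, lower in gonadal fat, and no longer MYOM1. Depot in control dogs gave 1 call in place of 0 with a filter at log2 6, with only the arrays of the comparison, with the dog as a random or fixed replicate block and with the covariate. The replicate block changed no other count of calls among the 40 genes. Among the further muscle genes the fixed block gave 2 higher calls in place of 1 for depot in ad libitum dogs. Leaving out each dog in turn gave 0 to 1 calls for subcutaneous feeding and for depot in ad libitum and in control dogs, and 0 for the others.

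Among named genes ATP2A1 in gonadal feeding turned to 0.73 with the mean of its probe sets. With values under log2 4 set to 4, subcutaneous dog 7 had a median deviation of 0.0 and a fast minus slow value of -0.042, against 0.06 and 0.42. With the mean of probe sets, gonadal dog 2 had -0.87 for fast minus slow, against -2.37. The direction and the excess in gonadal dog 2 and subcutaneous dogs 3 and 4 held under the other settings tried. Signals under the floor limit what can be said of 18 genes that did not pass the filter.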
